A study of Mus musculus with 2 samples.

Results

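The P2Y receptors are the cell-surface receptors through which cells sense nucleotides outside the cell. The 7 mouse receptor genes P2ry1, P2ry2, P2ry4, P2ry6, P2ry12, P2ry13 and P2ry14 were read in skin tumours raised by ultraviolet B (UVB) light. Members were taken by gene name alone, as every non-control probe named for one of them, which gave 10 of the 56605 non-control probes and 7 of the 37321 gene names on the array. P2ry2, P2ry6 and P2ry14 had 2 probes each and the other 4 genes had 1.

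One RNA sample came from UVB tumours of male P2ry6-/- mice (KO) and 1 from UVB tumours of male P2ry6+/+ mice (WT), each hybridised to 1 single-colour Agilent array. Irradiation was started on mice aged 2 months at 180 mJ/cm2. After 10 weeks at that dose it was stepped up weekly by 10 mJ/cm2, reached 300 mJ/cm2 at week 22, and was held there to week 40. Strain, the deleted stretch of P2ry6 and the number of tumours or mice behind each RNA are not given in the sources used here. With 1 array per genotype no test was possible, no p-value is given, and differences are described by size beside technical error alone.

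Their ligands are released ATP, ADP, UTP, UDP and UDP-sugars, and members differ in which of these they respond to. P2Y1, P2Y2, P2Y4 and P2Y6 couple mainly to Gq, which activates phospholipase C and releases calcium from internal stores, and P2Y12, P2Y13 and P2Y14 couple mainly to Gi, which lowers cyclic AMP. In skin, keratinocytes release ATP when damaged and carry P2Y2 receptors, though not necessarily these alone. Myeloid cells, platelets and endothelium also carry several members of the family.

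The genes with a pair of probes are shown first, because both P2ry6 probes gave a reading while 1 of each pair for P2ry2 and P2ry14 did not. Each array probe is a strand of 60 bases, and its bases 31 to 60 are printed 5′ to 3′ as the array files give them, with the letters AATAAA, the usual polyadenylation signal, in capitals. P2ry6 lies on chromosome 7, with probe 1 at chr7:108112251-108112310 and probe 2 at chr7:108086152-108086211. P2ry2 lies on the same chromosome, with probe 1 at chr7:108145747-108145807 and probe 2 at chr7:108145553-108145612. P2ry14 lies on chromosome 3, with probe 1 at chr3:58919013-58919072 and probe 2 at chr3:58918548-58918607. All 6 are on the minus strand of mm9, and no exon or intron annotation of that build was used.
P2ry6 probe 1: tgtgtgttgcaggtcagaaagatcctatct
P2ry6 probe 2: cataagagagaAATAAAtgtgtttttgtgg
P2ry2 probe 1: ttcttccaagcatgagaggagctaaatatg
P2ry2 probe 2: aaaattaccaatacaaaggcgaacccattg
P2ry14 probe 1: aaataagaagttacacatgtcactcaaagt
P2ry14 probe 2: tgtgccAATAAAcaagttgtcttcaaaacc

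The P2ry6 probes were 26.0 kb apart, far more than the 0.134 kb between the P2ry2 probes and the 0.405 kb between the P2ry14 probes. P2ry6 probe 2 was designed on the RefSeq transcript and held AATAAA at base 42 of the 60, and probe 1 was designed on a separate cDNA clone sequence that the array file also names P2ry6. AATAAA was present in 2 of the 10 receptor probes (20%) on the probe strand and in 1 (10%) on the other, against 9.77% and 3.85% of 56594 non-control probes. P2ry2 probe 1 was designed on a separate cDNA entry and was placed on 61 genome bases, 1 more than its own length. A stretch of 15 bases was shared with probes of other genes by P2ry2 probe 1 (1 probe) and by the P2ry4 probe (2 probes), and by none of the other 8.

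Signals are the scanner software's processed intensities, each with that software's own error for the spot. A probe counted as measured if the software marked it well above background on both arrays. That held for 6 of the 10 receptor probes and 5 of the 7 genes, and the other 4 probes were not well above background on either array. The lowest signal with that mark was 17.4 units on the KO-labelled array and 17.7 units on the WT-labelled array. The arrays were alike in brightness: 57.9% of non-control spots on the KO-labelled array and 57.8% on the WT-labelled array were well above background, and the median signal was 40.0 units on the KO-labelled array and 39.9 units on the WT-labelled array. No spot was saturated, and no receptor probe was marked as an outlier. Levels are given as log2 of the signal relative to the array's 75th percentile over probes, which was 327 units on the KO-labelled array and 347 units on the WT-labelled array.

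**Figure D1:**
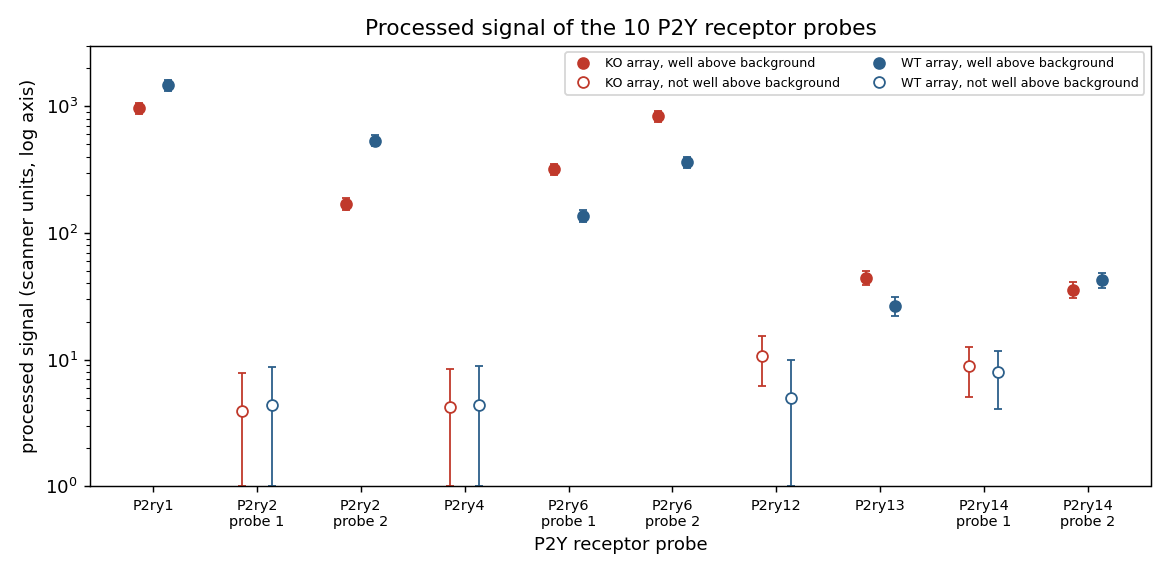
Processed signal in scanner units (log axis) of each of the 10 P2Y receptor probes on the KO-labelled array (red, left of each pair) and the WT-labelled array (blue). Bars are the scanner software's error of the spot, cut at 1 unit where they reach lower, and open circles mark probes not well above background. Both P2ry6 probes sat higher on the KO-labelled array, P2ry2 probe 2 sat lower, and 4 probes were dim on both.

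P2ry6, the receptor for UDP and the gene the KO mice are labelled as lacking, was the receptor gene with the greatest positive difference. Its probe 2 read 835 ± 83.6 units on the KO-labelled array, against 364 ± 36.6 units on the WT-labelled array (scanner error, 1 spot each). Its probe 1 read 318 ± 32.0 units on the KO-labelled array, against 137 ± 14.3 units on the WT-labelled array. Both probes were thus bright on both arrays and clearly brighter on the array labelled as the knockout.

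On the level scale P2ry6 stood at 0.66 on the KO-labelled array and −0.63 on the WT-labelled array, a difference of 1.29 ± 0.01 (log2, SD over 2 probes), or 2.44-fold higher. Probe 1 gave 1.29 ± 0.21 and probe 2 gave 1.28 ± 0.20 (scanner error), so the error of each reading was far larger than the gap between the probes. Under normexp background correction the probes stood further apart, at 1.03 for probe 1 and 1.18 for probe 2. Probes of one gene differed in this contrast with an SD of 0.38 over 6731 genes with 2 or more measured probes. Both probes of the gene that the KO mice are labelled as lacking were thus higher on the KO-labelled array. Whether either probe lies in the deleted stretch is not known here, and a probe outside it does not check the label. Every direction here rests on the labels as given. Counting upward, 492 of 19872 measured genes (2.48%) had a difference at least as great as that of P2ry6. Among the 2938 genes within 0.5 log2 of its mean level, 4.73% were higher by 2-fold or more. In whole tumours more cells of a type and more RNA per cell cannot be told apart.

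The probe of an unnamed transcript (AK033028) lies on the plus strand between the 2 P2ry6 probes, at chr7:108099778-108099837. Its signal was 40.7 units on the KO-labelled array, against 42.3 units on the WT-labelled array, a log2 difference of 0.03. The 2 flanking readings on the minus strand were the ones that differed. The plus-strand reading was far dimmer than those and makes a weak contrast. The lowest signal that counted as above background was 17.4 units on the KO-labelled array and 17.7 units on the WT-labelled array. This transcript was singled out because of its place, as the one other gene name probed within the interval.

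P2ry2, the receptor for ATP and UTP, went the opposite way. Its probe 2 read 171 ± 17.5 units on the KO-labelled array, against 537 ± 53.9 units on the WT-labelled array, a log2 difference of −1.57 ± 0.21 (scanner error) or 2.97-fold lower. In all, 318 genes (1.60%) had a difference at least as low, and 4.65% of the 3073 genes of similar level were lower by 2-fold or more. P2ry2 probe 1, only 0.134 kb away, gave 3.90 ± 3.91 units on the KO-labelled array and 4.39 ± 4.41 units on the WT-labelled array, below background on both, so the value of P2ry2 rests on 1 of its 2 probes. With the dim probe averaged in, the log2 difference came to −0.83, short of 2-fold.

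P2ry4, the remaining UTP receptor, was not well above background on either array. Its only probe, at chrX:97785508-97785567 on the minus strand, read 4.21 ± 4.22 units on the KO-labelled array and 4.41 ± 4.42 units on the WT-labelled array. With errors as large as the signals, no fold is given. The combined scanner error of the log2 difference was the same, 2.05, for this probe and for P2ry2 probe 1. The scanner software put surrogates in place of values near background, and whether the values of these 2 probes are surrogates was not checked. This probe was also the poorest in G and C of the 10, at 26.7%, against 35.0% to 45.0% for the others.

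Of the receptors for ADP, P2ry1 was bright on both arrays, P2ry13 was dim and P2ry12 was below background. P2ry1, which starts platelet shape change and is also found on endothelium, was read at chr3:60812600-60812659 on the plus strand. It gave 963 ± 96.4 units on the KO-labelled array, brighter than 85.0% of probes there, against 1474 ± 147 units on the WT-labelled array, brighter than 87.0%. The log2 difference was −0.53 ± 0.20 (scanner error), which is 1.44-fold lower and short of 2-fold. As many as 16.1% of measured genes differed by at least as much in that direction.

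P2ry13, an ADP receptor of myeloid cells, was dim but measured. Its probe at chr3:59012054-59012113 on the minus strand read 44.5 ± 5.79 units on the KO-labelled array, against 26.7 ± 4.67 units on the WT-labelled array. That is a log2 difference of 0.82 ± 0.31 (scanner error), or 1.77-fold higher, and 7.37% of measured genes had one at least as great. Both readings lay within 3 times the lowest signal that counted as above background.

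P2ry12, the ADP receptor best known from platelets and microglia, was not well above background on either array. Its probe lies 8.49 kb from that of P2ry13, at chr3:59020598-59020657 on the minus strand. It read 10.74 ± 4.59 units on the KO-labelled array and 5.0 ± 5.03 units on the WT-labelled array, and no fold is given.

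P2ry14, the receptor for UDP-glucose and other UDP-sugars, was close to the detection limit. Its probe 2 read 35.8 ± 5.22 units on the KO-labelled array, against 42.4 ± 5.76 units on the WT-labelled array, a log2 difference of −0.16 ± 0.29 (scanner error). The difference was smaller than its error. Its probe 1 read 8.84 ± 3.78 units on the KO-labelled array and 7.96 ± 3.86 units on the WT-labelled array, not well above background on either.

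Taking the 5 measured receptor genes against a threshold of 2-fold, P2ry6 alone passed it upward (1 gene), P2ry2 alone passed it downward (1 gene), and 3 passed it in neither direction. The same threshold was passed upward by 4.82% and downward by 5.04% of all 19872 measured genes. With 5 genes such counts say little about the family. The median difference was −0.16 over the 5 receptor genes and −0.06 over all measured genes, whose differences had an SD of 0.65.

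**Figure D2:**
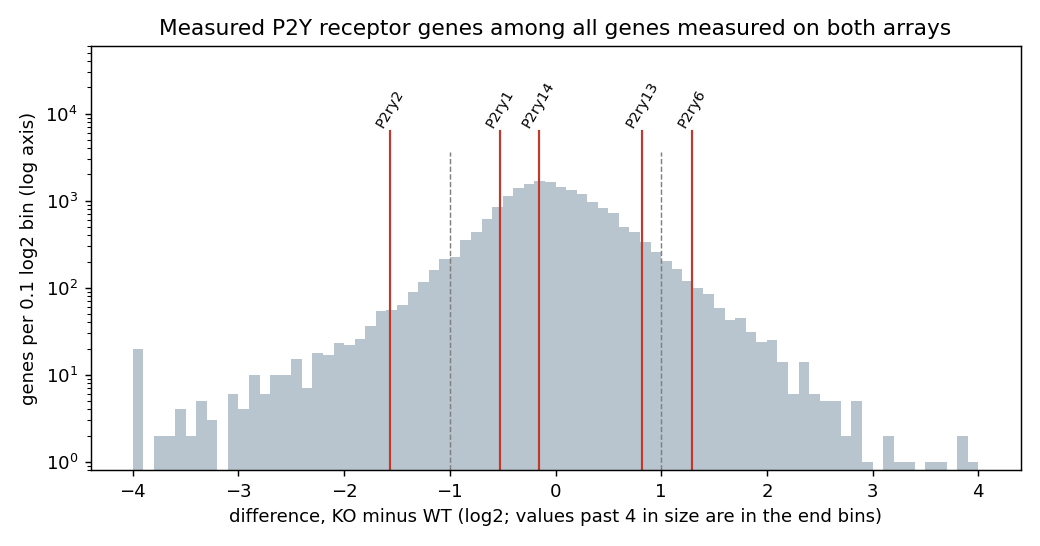
Number of genes (log axis) per 0.1 log2 bin of the difference KO minus WT, for the 19872 genes measured on both arrays, with values past 4 log2 units collected in the end bins. Red lines mark the 5 measured P2Y receptor genes and dashed lines 2-fold, and of these 5 genes P2ry6 and P2ry2 lie outside the dashed lines.

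The spots of the receptor probes were spread over the array, in rows 10 to 376 of the printed grid. P2ry6 probes 1 and 2 stood at row 200, column 27 and at row 218, column 1, while P2ry2 probe 2 stood at row 73, column 136, in the same row as P2ry13 at column 117. These neighbours in row 73 went in opposite directions between the arrays. P2ry1 stood at row 376, column 19, P2ry12 at row 10, column 9, P2ry4 at row 40, column 145 and P2ry2 probe 1 at row 15, column 111. P2ry14 probe 1 stood at row 81, column 115 and its probe 2 at row 152, column 28. Both arrays share 1 layout.

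The size of each difference depended on the scale, and its sign did so only near 0. P2ry6 differed by 1.30 after quantile and by 1.32 after loess normalization, and by 1.32 in the authors' deposited table, where the arrays share 1 distribution. P2ry2 differed by −1.56, −1.55 and, in the authors' deposited table, −1.57. On the scale of 8 spike-in control probes, every difference reads 0.46 lower, so P2ry6 came to 0.83, short of 2-fold, and P2ry2 to −2.03. P2ry13 came to 0.36 on that scale and to 0.37 under normexp, a model-based background correction. It was run with an offset of 50, and an added offset shrinks log differences between dim readings. P2ry14 was −0.01 under normexp and 0.04 when its dim probe was averaged in.

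**Figure D3:**
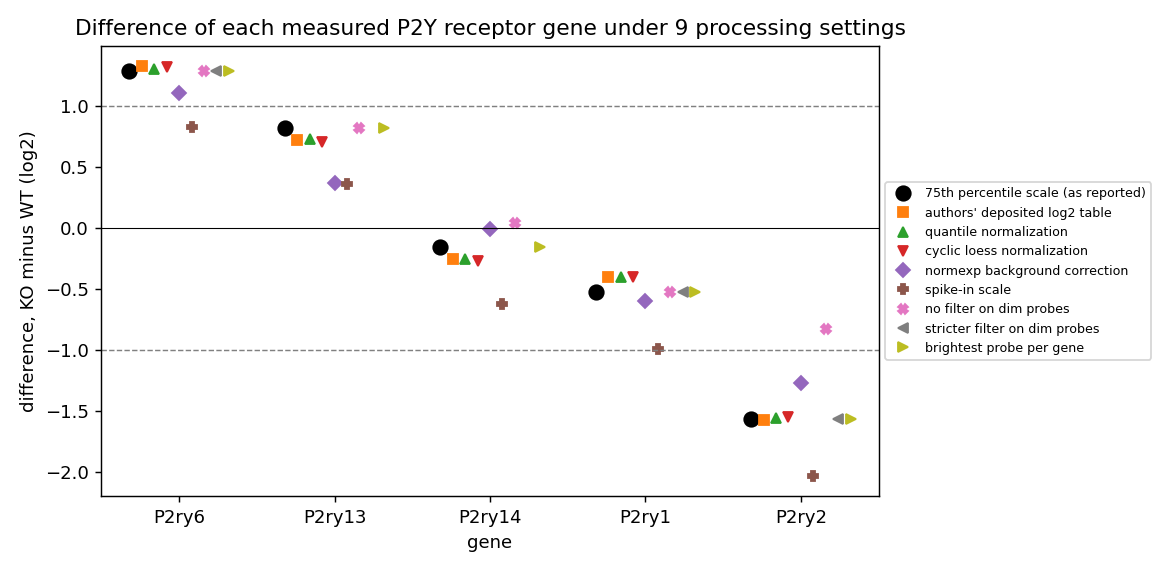
Difference KO minus WT (log2) of the 5 measured P2Y receptor genes under 9 processing settings, each with its own marker, with dashed lines at 2-fold. P2ry6 stayed above 0 and P2ry2 below 0 in all 9, P2ry6 fell short of 2-fold on the spike-in scale, and P2ry2 fell short with no filter on dim probes.

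Markers of several cell types known to carry these receptors differed between the arrays. The share of all measured genes to set beside each marker count is 4.82% past 2-fold upward and 5.04% downward. Of 10 macrophage markers, 4 passed 2-fold upward on the KO-labelled array, 1 passed it downward, 4 did not pass it, and Cd163 was above background on the WT-labelled array alone, with a median of 0.94 over the 9 measured. Their summed signal, in units of the 75th percentile, was 15.9 on the KO-labelled array and 8.30 on the WT-labelled array. Among the 9, Cx3cr1 differed by 2.78, Fcgr1 by 1.71, Mertk by 1.35 and C1qa by 0.94. C1qb, a complement subunit made by macrophages, differed by 1.28 and Adgre1, which encodes F4/80, by 0.82. Csf1r differed by 0.71 ± 0.85 and Cd68, a lysosomal marker, by 0.05 ± 0.03 (SD, n = 2 probes each). Mrc1 was the lower one, at −1.07. The P2ry6 and P2ry13 differences of 1.29 and 0.82 had the sign of 8 of these 9 markers, whose sizes varied widely. Mrc1 went the other way, as did Cd163, which is outside the 9 and was at least 1.66-fold lower on the KO-labelled array. The part of macrophage content in the 2 receptor differences was not tested.

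The dendritic cell list had 3 of 4 measured members past 2-fold upward and 0 downward, with a median of 1.18. These 3 were H2-Aa (1.27), Itgax (1.21) and Ciita (1.14 ± 0.24, SD, n = 3 probes), while Flt3 differed by 0.04 ± 0.81 (SD, n = 2 probes). The summed signal of the list was 7.04 on the KO-labelled array against 3.03 on the WT-labelled array. The defining members Xcr1, Zbtb46 and Cd209a were below background on both arrays. Among 6 endothelial markers 0 were 2-fold apart (median 0.34, summed signal 8.0 on the KO-labelled array and 5.85 on the WT-labelled array). Neutrophil markers gave 1 higher, 0 lower and 5 neither of 6 (median −0.14, summed signal 652 on the KO-labelled array and 862 on the WT-labelled array). S100a9 made up 372 of that sum on the KO-labelled array and 489 on the WT-labelled array, and S100a8 125 and 233. Csf3r made up 153 and 137, so the sum is mainly these genes' probes. Outside these, Retnlg was the higher one, Cxcr2 differed by 0.11 and Ly6g by −0.81. The part of neutrophil content in the sum was not tested.

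Platelets are a known site of P2ry1 and P2ry12. Of 8 platelet and megakaryocyte markers, 6 were measured, 0 higher, 1 lower and 5 neither (median −0.55), with a summed signal of 2.68 on the KO-labelled array and 4.03 on the WT-labelled array. Ppbp, a platelet chemokine gene, was the lower one at −1.21, and Itga2b and Gp1ba, which encode platelet receptor subunits, were below background on both arrays. The P2ry1 difference of −0.53 went with this list, and its part was not tested. Of 6 markers of microglia and of macrophages positive for P2ry12, 4 were measured, with 1 higher and 0 lower. That was Tmem119 (1.17), while Gpr34 was above background on the KO-labelled array alone and Sall1 on neither (median 0.15, summed signal 50.1 on the KO-labelled array and 37.1 on the WT-labelled array). Siglech alone made up 42.5 of that sum on the KO-labelled array and 30.02 on the WT-labelled array, so the sum is mainly that gene's probe.

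P2ry2 is known from keratinocytes. Among 6 measured suprabasal keratinocyte markers, 4 passed 2-fold downward, 0 upward and 2 stayed within it (median −1.49, summed signal 393 on the KO-labelled array and 911 on the WT-labelled array). Basal keratinocyte markers gave 1 higher, 0 lower and 6 neither of 7 (median 0.05, summed signal 1443 on the KO-labelled array and 1087 on the WT-labelled array). The higher one was Krt5, which made up 526 of that sum on the KO-labelled array and 166 on the WT-labelled array, while Krt14 made up 751 and 744. Each of 6 markers of the sebaceous gland passed 2-fold downward (median −5.91, summed signal 3.49 on the KO-labelled array and 136 on the WT-labelled array). P2ry2 had the sign of the suprabasal and sebaceous medians, while the basal median was 0.05. Medians of the neutrophil, platelet, mast cell and T and NK cell lists were negative as well. The part of any of these lists in the P2ry2 difference was not tested.

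For the remaining cell types, 3 of 4 measured mast cell markers were lower past 2-fold, 0 higher, and Ms4a2 was above background on the WT-labelled array alone (median −2.35, summed signal 1.91 on the KO-labelled array and 9.38 on the WT-labelled array). T and NK cell markers included 2 lower and 0 higher of 5 measured, while Cd8a was above background on the KO-labelled array alone, at least 1.29-fold higher, and Ncr1 on neither (median −0.43, summed signal 2.19 on the KO-labelled array and 3.07 on the WT-labelled array). Of 3 measured Schwann cell markers 1 was higher and 0 lower (median 0.03, summed signal 1.93 on the KO-labelled array and 0.591 on the WT-labelled array). S100b alone made up 1.76 of that sum on the KO-labelled array and 0.290 on the WT-labelled array, while Sox10 was above background on the WT-labelled array alone, at least 2.12-fold lower on the KO-labelled array. Of 3 skeletal muscle markers Acta1 was measured and higher, at 3.84, Myh4 was above background on the WT-labelled array alone, at least 1.17-fold lower on the KO-labelled array, and Ckm on neither.

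Beyond the family, 10 receptors related to it by sequence were looked up, of which 5 were measured, and 0 of the 5 were 2-fold apart (median −0.63). For this list and those that follow, the share of all measured genes past 2-fold was 4.82% upward and 5.04% downward. Lpar4, a lysophosphatidic acid receptor gene, differed by 0.94. Gpr171, a receptor gene that sits beside P2ry12, P2ry13 and P2ry14, differed by −0.88. P2ry10, a receptor gene of lymphocytes that responds to lysophosphatidylserine, differed by −0.63. P2ry13 and Gpr171 thus lay on opposite sides of 0. Gpr34 and P2ry10b were above background on the KO-labelled array alone, with bounds of at least 1.85-fold and at least 1.19-fold higher, each computed against the higher of the WT-labelled array's lowest signal above background and the probe's own.

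The Gq arm, through which P2Y1, P2Y2, P2Y4 and P2Y6 act, stayed near the centre of all genes. All 16 of its members were measured, and 1 passed 2-fold upward, 0 downward and 15 not, with a median of −0.08. Itpr1, one of the calcium release channels of the endoplasmic reticulum, differed by 1.09 ± 0.42 (SD, n = 3 probes). Gna15, the Gq-family subunit of blood cells, differed by −0.85, the store-operated channel gene Orai1 by −0.80 and the Gq-family subunit gene Gna14 by −0.67.

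The Gi arm, through which P2Y12, P2Y13 and P2Y14 act, had 11 of 16 members measured, with 1 higher, 2 lower and 8 neither (median 0.09). The adenylyl cyclase genes went apart: Adcy6 differed by 1.43, Adcy3 by −1.14 and Adcy4 by 0.70. Gnai1, an inhibitory G protein subunit gene, differed by −1.13, while its relative Gnai2 differed by 0.09 ± 0.06 (SD, n = 2 probes). Gnai2 falls outside the naming rule and was added after its value was seen.

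Genes that switch receptors off gave 0 higher, 1 lower and 8 neither of 9 measured among 12 (median 0.04). Rgs16 and Rgs2, which speed the turnover of GTP on G protein subunits, differed by −1.20 and −0.94. Arrb2, an arrestin gene, differed by 0.81 ± 0.13 (SD, n = 3 probes), and the receptor kinase gene Grk5 by −0.71. Grk4, Rgs18 and Rgs4 were above background on the WT-labelled array alone, with bounds of at least 2.11-fold, 1.98-fold and 1.64-fold lower on the KO-labelled array.

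Genes that release nucleotides or break them down gave 2 higher, 0 lower and 14 neither of 16 measured among 19 (median −0.23). Enpp1, which cleaves ATP at the cell surface, differed by 1.08 ± 0.61 (SD, n = 3 probes), and Ak1, which interconverts adenine nucleotides, by 1.01. Entpd5, a nucleotidase of the endoplasmic reticulum that prefers UDP, differed by −0.84 ± 0.02 (SD, n = 2 probes), and Entpd1, the surface enzyme CD39 that removes phosphates from ATP and ADP, by 0.73 ± 0.11 (SD, n = 2 probes). Panx3, a pannexin gene, was above background on the WT-labelled array alone, at least 9.24-fold lower on the KO-labelled array.

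Genes of UDP-sugar supply, the source of the P2Y14 ligands, had 0 of 11 members 2-fold apart (median 0.18). Uap1, which makes UDP-N-acetylglucosamine, differed by −0.65, the nucleotide sugar transporter gene Slc35d1 by 0.60 and the UDP-glucose dehydrogenase gene Ugdh by 0.44 ± 0.27 (SD, n = 2 probes).

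**Figure D4:**
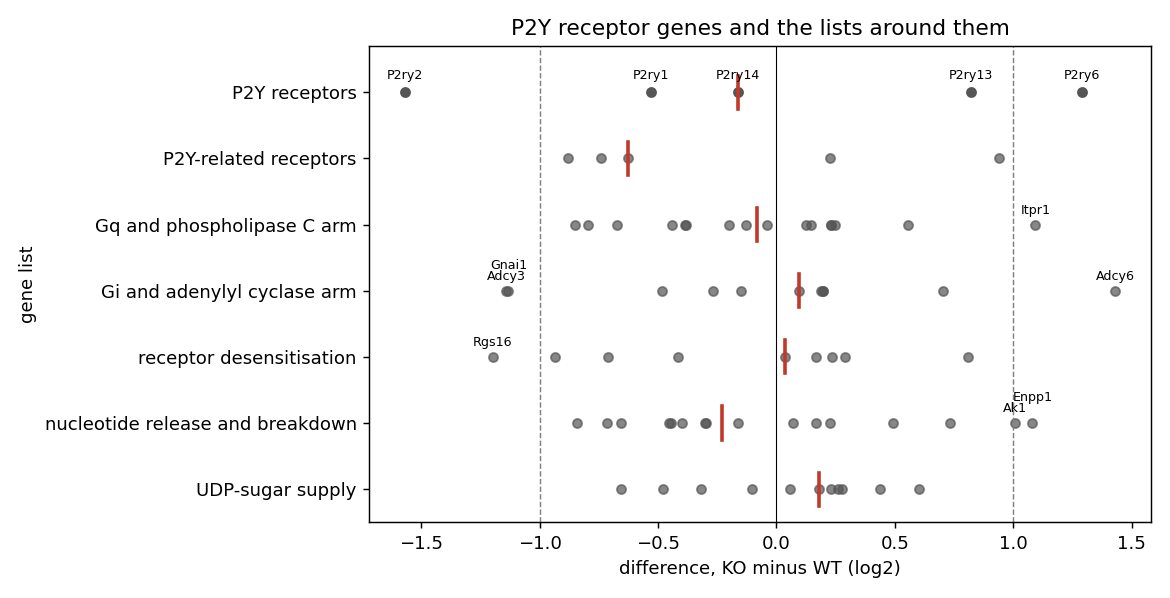
Difference KO minus WT (log2) of each measured P2Y receptor gene and of each measured gene in the 6 lists around them, 1 grey point per gene, with red bars at list medians and dashed lines at 2-fold. Points past 2-fold in the lists are named, and list medians lie between −0.63 and 0.18.

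The receptor genes are grouped on the chromosomes, so genes with a probe within 500 kb were listed by position on mm9. Over the 4 stretches 38 of 64 neighbouring gene names were measured, of which 0 passed 2-fold upward and 4 downward, while 34 stayed within it. Of all 19872 measured genes 4.82% passed 2-fold upward and 5.04% downward. On chromosome 7, P2ry2 lies 33.2 kb from P2ry6, and 18 measured neighbours had a median of 0.11 with 0 past 2-fold in either direction. The nearest named genes on either side, the exchange factor gene Arhgef17 at 65.4 kb and Fchsd2 at 144 kb, differed by 0.46 and by 0.07 ± 0.14 (SD, n = 2 probes). P2ry6 and P2ry2, with opposite differences, were thus the 2 genes of that stretch past 2-fold.

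Around P2ry12, P2ry13 and P2ry14 on chromosome 3, 0 of 6 measured neighbours were 2-fold apart (median −0.61). Med12l, a Mediator subunit gene that spans the cluster, differed by 0.92, and the nearest outside it, Gpr171 at 17.6 kb on one side and Igsf10 on the other, by −0.88 and by −0.09 ± 0.56 (SD, n = 2 probes). Around P2ry1, 3 measured neighbours had a median of 0.32 and 0 were 2-fold apart. Mbnl1, an RNA splicing regulator, at 380 kb differed by 0.32 ± 0.37 (SD, n = 3 probes) and the small GTPase gene Rap2b at 359 kb by −0.38. An unnamed transcript closer to P2ry1 was not measured.

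P2ry4, below background itself, stood beside genes with very large differences. Of its 11 measured neighbours on the X chromosome 0 were higher, 4 lower and 7 neither (median −0.47). Awat1, a wax ester synthase gene of sebaceous glands and the nearest neighbour below at 12.3 kb, read 45.1 units on the KO-labelled array, against 5208 units on the WT-labelled array, 109-fold lower. Dgat2l6, an acyltransferase gene, at 44.3 kb differed by −6.39, Awat2 at 188 kb by −2.11 ± 0.34 (SD, n = 2 probes) and the mitotic kinesin gene Kif4 at 46.0 kb by −1.12. Arr3, an arrestin gene of cone cells 22.6 kb above, was not measured on both arrays.

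**Figure D5:**
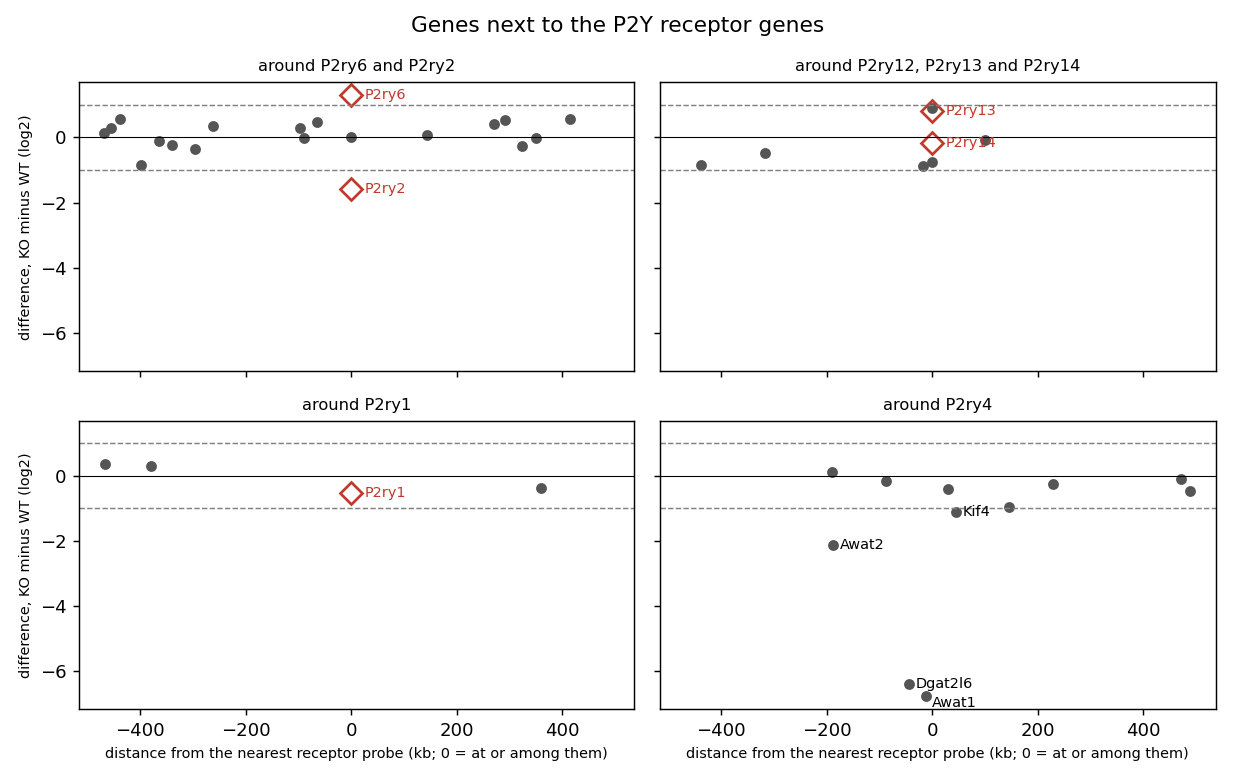
Difference KO minus WT (log2) of measured genes against distance in kb from the nearest P2Y receptor probe of each stretch (0 for genes at or among them). Red diamonds are the receptor genes, dashed lines are 2-fold, and the 4 neighbours past 2-fold all lie around P2ry4.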

How the data were processed

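Total RNA was labelled with Cy3 after linear amplification, per the labels' protocols. Spot intensities are the authors' output of Agilent Feature Extraction (version 10.7.1.1 per the submitters' processing notes). Per the file headers it subtracted background with spatial detrending, detrended multiplicatively and put surrogates in place of values near background. Both arrays were read in the same scan, per the file headers. The authors' deposited table holds log2 values of the same arrays whose columns share nearly the same sorted values. How it was made is not stated in the labels or headers, and it served as an alternative.

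From the scanner files, spots marked as outliers were left out (11 probes lost), spots of a probe were averaged as log2, and the 75th percentile over probes was subtracted. A gene's value is the mean over probes marked well above background on both arrays. Probes took RefSeq symbols (GRCm38.p6 table, names only) for 32988 of 56594 probes by accession, and the array file's name for 23606. Positions are those of the files, on mm9. R 4.3.3 with limma 3.58.1 ran normexp (offset 50), quantile and loess, and Python 3.11.15 the rest, checked on simulated data. Scanner errors were combined as relative errors on the log2 scale. With 1 array per genotype, variation between tumours or mice cannot be told apart from genotype, and that number limits the precision. Named genes are all members, up to 4 per list by size of difference, list members past 2-fold, neighbours past 2-fold and the nearest on each side. Cell type markers, genes above background on one array alone and other genes outside that rule were named after their values were seen. Some genes that the rule takes are left out of the text. No gene was named for a pattern like a member's, since 2 arrays give 1 difference per gene. Members and lists were chosen with earlier results of these data known.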

Additional observations from a re-analysis of the deposited data

How the results depend on the processing

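No paired analysis was possible because there was 1 array per genotype, so neither a replicate nor a slide could be left out or used as a block. Each of 8 other settings was applied alone, and no receptor difference that passed 2-fold changed sign. On the spike-in scale, where every difference is lower by 0.46, P2ry6 was 0.83, P2ry13 0.36, P2ry14 −0.62, P2ry1 −0.99 and P2ry2 −2.03. With no filter on dim probes P2ry2 was −0.83, because its dim probe was averaged in, and with normexp correction P2ry13 was 0.37. The stricter filter gave no value for P2ry13 or P2ry14. Counts of receptor genes past the threshold upward were 2 with no filter (the added gene was P2ry12, not well above background on either array), 2 at 1.5-fold, 0 at 3-fold and 0 on the spike-in scale. Downward they were 0 with no filter and 0 at 3-fold.

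Over all genes the upward count of 957 became 368 with normexp, 2244 with no filter, 540 with the stricter filter and 320 on the spike-in scale. The downward count of 1002 became 578 with normexp, 2135 with no filter and 3123 on the spike-in scale.

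On the spike-in scale list medians were −1.09 for the related receptors, −0.55 for the Gq arm, −0.37 for the Gi arm, −0.42 for desensitisation, −0.69 for nucleotide release and breakdown and −0.28 for UDP-sugar supply. With no filter they were −0.022 for the related receptors, 0.040 for the Gq arm and −0.43 for desensitisation. Normexp gave −0.18 for the related receptors and −0.075 for nucleotide release and breakdown. The brightest probe per gene gave 0.17 for desensitisation and −0.051 for nucleotide release and breakdown.

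Medians of neighbours on the spike-in scale were −0.15 around P2ry1, −1.07 around P2ry12, P2ry13 and P2ry14, −0.93 around P2ry4 and −0.35 around P2ry6 and P2ry2. Around P2ry1 they were 0.18 with normexp, 0.022 with the brightest probe and −0.033 within 1000 kb. Around P2ry12, P2ry13 and P2ry14 they were −0.41 with normexp, 0.012 with no filter and −0.74 within 1000 kb. Around P2ry4 they were −0.25 with no filter, −0.33 with the stricter filter and −0.25 within 1000 kb. For changes other than the spike-in shift and the averaged dim probe of P2ry2, the cause was not tested.

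With 1 array per genotype the error given is that of spots and probes, and spread between tumours or mice is unknown. P2ry4, P2ry12 and 1 probe each of P2ry2 and P2ry14 were not well above background, so a difference in them was not detectable at this signal. P2ry13 and P2ry14 were close to that limit.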
